A study of Mus musculus with 6 samples.

Results

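The 3 genes described here encode the glucose-sensing Mondo transcription factors and their shared partner: Mlxipl (ChREBP), Mlxip (MondoA) and Mlx. They were picked by symbol, and all 3 were found among the 22272 distinct symbols of the deposited count table. RNA came from 6 samples of C2C12, a mouse myoblast line that can form muscle fibres in culture. In 3 samples the cells overexpressed ChREBP-beta, and in the other 3 they carried green fluorescent protein (GFP) and are labelled wild type in genotype. All 6 samples were of undifferentiated cells, taken at day 0. The sources used here do not give how the factor or GFP was introduced, or whether a line was a single clone. Separate cultures are not stated for the replicates, so each p-value reflects how these samples scattered, and that scatter may be technical only. Values listed for 3 libraries are in the order of replicates 1 to 3.

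ChREBP and MondoA are basic helix-loop-helix leucine zipper proteins that stay largely in the cytoplasm when glucose is scarce. When glucose phosphates accumulate they enter the nucleus, where each pairs with Mlx and binds carbohydrate response elements, which are built of E-box-like half-sites, near genes of sugar and fat metabolism. ChREBP is best known in liver, fat and gut, whereas MondoA is the main family member of skeletal muscle. ChREBP-beta lacks the amino-terminal glucose-sensing region that holds the full-length ChREBP-alpha in check, and it is therefore highly active.

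The libraries held 17600238 to 19163834 deposited counts each, with both groups spread over that range. Of 12166 genes tested, 58.7% passed an adjusted p of 0.05 (edgeR quasi-likelihood test, Benjamini-Hochberg), 29.5% higher and 29.3% lower in ChREBP-beta cells, and this is the background for the counts that follow. Scaled by library size alone, 2989 genes were higher and 4166 lower, and scaled by upper quartiles 3166 were higher and 4005 lower. All 7 myoblast markers examined, Myod1 and Des among them, were lower in ChREBP-beta cells. Their summed level was 120 to 127 CPM (reads of the gene per 1000000 of the scaled library) in ChREBP-beta libraries, against 345 to 377 CPM in GFP libraries. Pax7, the satellite cell marker among them, had no reads in ChREBP-beta replicates 1 and 2. In bulk RNA, fewer cells expressing a gene and less of its RNA per cell cannot be told apart. All 6 fibroblast markers were called, 4 higher (Pdgfra, Dpt, Pi16 and Ly6a) and 2 lower (Dcn and Cd34). Their summed levels were 875 to 900 CPM in ChREBP-beta libraries and 827 to 861 CPM in GFP libraries. Most of these sums came from Cd34 (mean 477 CPM in ChREBP-beta cells and 572 CPM in GFP cells) and Ly6a (358 and 238 CPM). The sums therefore say little of the other fibroblast markers. The part of the marker changes in the results below was not tested. The 6 adipocyte markers summed to 0.231 to 1.41 CPM in ChREBP-beta libraries and 0.105 to 0.78 CPM in GFP libraries, with Lep at 0 in all 6. Markers of hepatocytes, the cells in which Mlxipl is most studied, summed over 10 genes to 25.4, 20.4 and 19.4 CPM in ChREBP-beta libraries, against 0.994, 0.166 and 32.9 CPM in GFP libraries. Alb was at 0 in GFP replicate 2, and Apoa1 in GFP replicates 1 and 2. None of the 7 hepatocyte markers tested passed, and in their sum the GFP libraries spanned the ChREBP-beta ones.

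Mlxipl lies on chromosome 5 from 135089890 to 135138382 (plus strand, GRCm38) and has 2 RefSeq start sites, 17001 bases apart. ChREBP-beta is known to be transcribed from the upstream first exon, called 1b, and ChREBP-alpha from the downstream one, called 1a. Mlxip lies on the same chromosome (123394798 to 123457932, plus strand) and Mlx on chromosome 11 (101087277 to 101092207, plus strand). The 250 bases before each start site are shown because these factors bind E-boxes. The counts below are per gene and are not limited to transcripts from these starts. Those of Mlxipl in ChREBP-beta libraries also hold the introduced sequence. The Txnip sequence is added as the best known target of both Mondo proteins. Capitals mark the E-box CACGTG or, in Txnip, a tandem of 2 CACGNG half-sites with 5 bases between them, both searched on both strands. The tandem can contain an E-box. Sequences are from RefSeq, GRCm38.p6, 5′ to 3′ on the plus strand.
Mlxipl upstream start, chr5:135089640-135089889: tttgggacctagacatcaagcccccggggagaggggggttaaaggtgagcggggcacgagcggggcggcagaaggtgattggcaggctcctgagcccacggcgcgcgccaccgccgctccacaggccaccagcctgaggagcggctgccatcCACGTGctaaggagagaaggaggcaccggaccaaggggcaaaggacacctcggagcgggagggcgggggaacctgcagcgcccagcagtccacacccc
Mlxipl downstream start, chr5:135106641-135106890: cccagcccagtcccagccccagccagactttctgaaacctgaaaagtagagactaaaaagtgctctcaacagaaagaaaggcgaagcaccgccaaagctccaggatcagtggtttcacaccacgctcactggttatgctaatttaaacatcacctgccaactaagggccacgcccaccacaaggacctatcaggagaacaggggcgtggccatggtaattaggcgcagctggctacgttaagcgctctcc
Mlxip, chr5:123394548-123394797: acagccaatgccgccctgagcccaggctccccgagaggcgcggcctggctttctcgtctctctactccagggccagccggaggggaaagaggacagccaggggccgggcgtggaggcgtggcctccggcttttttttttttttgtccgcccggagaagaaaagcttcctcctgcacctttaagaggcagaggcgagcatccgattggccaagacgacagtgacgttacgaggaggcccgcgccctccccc
Mlx, chr11:101087040-101087289: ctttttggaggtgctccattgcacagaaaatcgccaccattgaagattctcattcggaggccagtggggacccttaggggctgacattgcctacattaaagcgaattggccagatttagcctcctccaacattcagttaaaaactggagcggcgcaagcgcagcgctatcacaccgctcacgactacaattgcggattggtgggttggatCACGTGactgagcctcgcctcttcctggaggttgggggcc
Txnip, chr3:96557707-96557956: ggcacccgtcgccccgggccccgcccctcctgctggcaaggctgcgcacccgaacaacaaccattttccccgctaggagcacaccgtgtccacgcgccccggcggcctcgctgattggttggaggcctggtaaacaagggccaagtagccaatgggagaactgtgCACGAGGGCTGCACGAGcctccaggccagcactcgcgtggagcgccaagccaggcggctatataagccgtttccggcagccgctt

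The upstream Mlxipl window held 1 CACGTG, beginning 98 bases before the start, and the Mlx window held 1, beginning 40 bases before it. The downstream Mlxipl window and the Mlxip window held none. CACGTG was present in 6.02% of all 32851 RefSeq windows of this length. The Txnip window had no CACGTG, but the tandem began 85 bases before its start. That pattern, written after the windows had been read, was found in 15 of the 32851 windows (0.0457%). A match here is a run of letters and not a measured binding site.

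Mlxipl, the gene overexpressed, was read 4083, 4038 and 3805 times in ChREBP-beta libraries, against 11, 13 and 9 times in GFP libraries. Scaled, these were 222, 215 and 220 CPM in ChREBP-beta libraries and 0.576, 0.719 and 0.501 CPM in GFP libraries. Every ChREBP-beta library thus stood far above every GFP library, as the labels require. Over the summed reads (11926 and 33) the ChREBP-beta to GFP ratio was 366, with an exact 95% counting interval of 260 to 532. The log2 fold change was 8.50 (edgeR adjusted p = 1.18e-28), the smallest p among the genes tested. The interval is set by the few GFP reads and covers counting error only.

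The introduced gene varied little between ChREBP-beta libraries, with a coefficient of variation of 1.76%, against 18.5% between GFP libraries, where each library had at most 13 reads. For GFP replicate 1 the 11 reads have an exact 95% counting interval of 5.49 to 19.7, which covers the other 2 GFP counts. Mlxipl averaged 219 ± 3.85 CPM in ChREBP-beta cells and 0.599 ± 0.111 CPM in GFP cells (SD, n = 3 each). Its mean level exceeded that of 92.8% of the tested genes in ChREBP-beta cells and of 2.14% in GFP cells. Gene-level counts hold the introduced sequence and the cell's own alpha and beta transcripts together, so they do not show which start site was used.

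**Figure D1:**
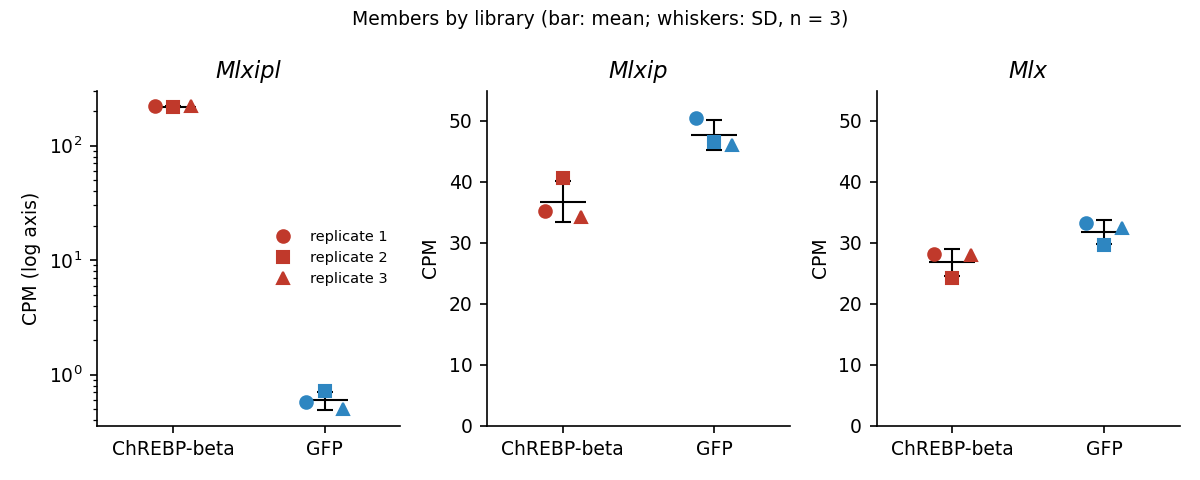
Level of each member in CPM in every library, with ChREBP-beta on the left and GFP on the right of each panel. Points are libraries (circle, square and triangle for replicates 1, 2 and 3), bars are means and whiskers SD (n = 3), and the Mlxipl axis is logarithmic. Mlxipl stood at 215 to 222 CPM with ChREBP-beta and 0.501 to 0.719 CPM with GFP, while all Mlxip and Mlx points with ChREBP-beta lie below those with GFP.

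Mlxip, which encodes MondoA, was lower in ChREBP-beta cells. It was read at 35.3, 40.6 and 34.3 CPM in ChREBP-beta libraries, against 50.5, 46.5 and 46 CPM in GFP libraries. The groups did not overlap, as was the case for 63.2% of all tested genes and, in the lower direction, for 32% of them. ChREBP-beta replicate 2 was the highest of its group and lay nearest to the GFP libraries. The means were 36.7 ± 3.39 CPM in ChREBP-beta cells and 47.7 ± 2.48 CPM in GFP cells (SD, n = 3 each), a log2 fold change of -0.38 (SE 0.065, edgeR adjusted p = 2.31e-05). A larger absolute change was seen in 33.6% of the tested genes, and the median absolute log2 fold change over all of them was 0.23. All Mlxip counts were whole numbers. Mlxip shares 267 exonic bases with the antisense gene Gm15747, and Mlxipl shares 235 with the antisense Gm43500. Neither of these antisense symbols is in the count table. Reads of such partners cannot be told apart unless counting used strand, which the sources used here do not give. The fractional counts of Mlx and Psmc3ip, genes on opposite strands, complement each other (below), so strand apparently did not separate their reads.

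Mlx, the obligate dimer partner of both Mondo proteins, was also lower, by less. It was read at 28.1, 24.3 and 28 CPM in ChREBP-beta libraries, against 33.3, 29.6 and 32.4 CPM in GFP libraries. The groups did not overlap, with ChREBP-beta replicate 1 and GFP replicate 2 nearest to each other. The means were 26.8 ± 2.16 CPM in ChREBP-beta cells and 31.8 ± 1.9 CPM in GFP cells (SD, n = 3 each), a log2 fold change of -0.25 (SE 0.072, edgeR adjusted p = 0.00503). Without ChREBP-beta replicate 2, the lowest library, the log2 fold change was -0.18 and the call was lost (edgeR adjusted p = 0.0535). The Mlx change was close in size to that median absolute change.

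Mlx was the only one of the 3 genes with fractional counts, in 6 of 6 libraries. Mlx overlaps Psmc3ip, a meiotic recombination gene on the opposite strand, and the genes share 385 exonic bases in GENCODE M21. The deposited Mlx and Psmc3ip counts were 515.79 and 136.21 in ChREBP-beta replicate 1, and 635.87 and 202.13 in GFP replicate 1. Their sums were 652, 564 and 638 in ChREBP-beta libraries and 838, 690 and 747 in GFP libraries. All 6 sums were whole numbers within 0.005, so the fractions of the 2 genes complement each other. The Mlx share of the sum was 79.1%, 81% and 75.9% in ChREBP-beta libraries and 75.9%, 77.6% and 77.8% in GFP libraries, so the groups overlapped in how the reads were divided.

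Psmc3ip itself had 7.33 ± 1.6 CPM in ChREBP-beta cells and 9.46 ± 1.03 CPM in GFP cells (SD, n = 3 each; log2 fold change -0.37, edgeR adjusted p = 0.0305), with overlapping groups. Counted as 1 feature, an alternative chosen after seeing the data, the pair had 34.1 ± 3.65 CPM in ChREBP-beta cells and 41.2 ± 2.86 CPM in GFP cells (SD, n = 3 each). The log2 fold change of the sum was -0.28 (edgeR adjusted p = 0.00204). The pair taken whole was thus lower as well, and the part of the change that belongs to Mlx remains uncertain.

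**Figure D2:**
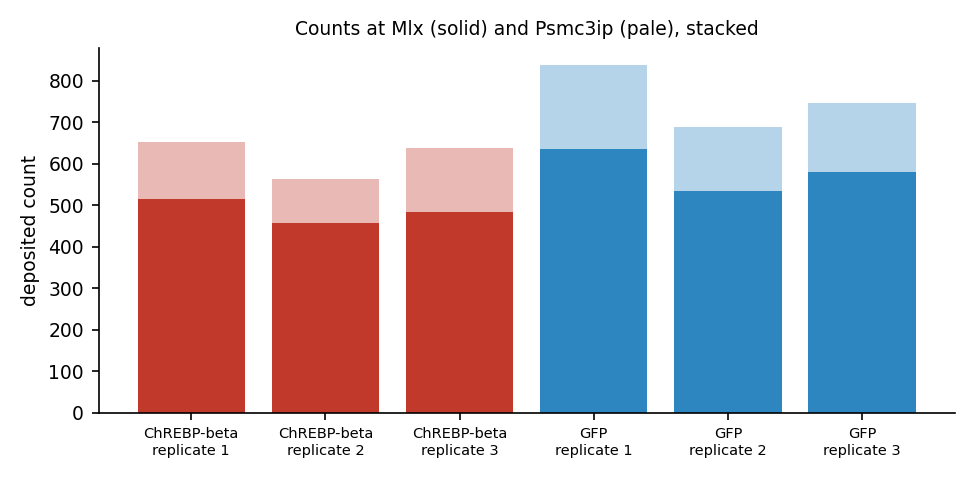
Deposited counts at Mlx (solid) and Psmc3ip (pale), stacked for each library, with ChREBP-beta libraries in red on the left and GFP libraries in blue on the right. The stacks reach 564 to 652 counts with ChREBP-beta and 690 to 838 with GFP, and each stack is a whole number although its parts are not.

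Levels of different genes can be set side by side only per length. Per kb of the transcript with the longest coding sequence (Mlxipl 3622, Mlxip 7303 and Mlx 1965 bases), Mlxipl stood at 60.4 ± 1.06 CPM per kb, Mlx at 13.6 ± 1.1 and Mlxip at 5.03 ± 0.464 CPM per kb in ChREBP-beta cells (SD, n = 3 each). In GFP cells the order was Mlx at 16.2 ± 0.967, Mlxip at 6.53 ± 0.339 and Mlxipl at 0.165 ± 0.0306 CPM per kb (SD, n = 3 each). No 2 neighbours in either order overlapped between libraries. Mlxipl was therefore the least abundant of the 3 in GFP cells and the most abundant in ChREBP-beta cells. Scaled by coding length, which suits an introduced reading frame without its flanking sequence, Mlxipl was at 84.5 ± 1.49 CPM per kb in ChREBP-beta cells and 0.231 ± 0.0427 in GFP cells. On that scale Mlx was at 30 ± 2.41 CPM per kb in ChREBP-beta cells and 35.5 ± 2.13 in GFP cells, and the orders were the same. The sources used here do not give the length of the introduced transcript, and the full coding length overstates that of the beta form.

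Mlxipl made up 92.7%, 91.4% and 92.8% of the length-scaled Mondo transcripts (Mlxipl and Mlxip together) in ChREBP-beta libraries, against 2.24%, 3.02% and 2.15% in GFP libraries. Mondo transcripts per Mlx transcript came to 4.63, 5.24 and 4.59 in ChREBP-beta libraries and to 0.418, 0.436 and 0.391 in GFP libraries. Transcripts of Mlx thus outnumbered those of its 2 Mondo partners in every GFP library, and were outnumbered by them in every ChREBP-beta library. These are ratios of RNA and not of protein.

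**Figure D3:**
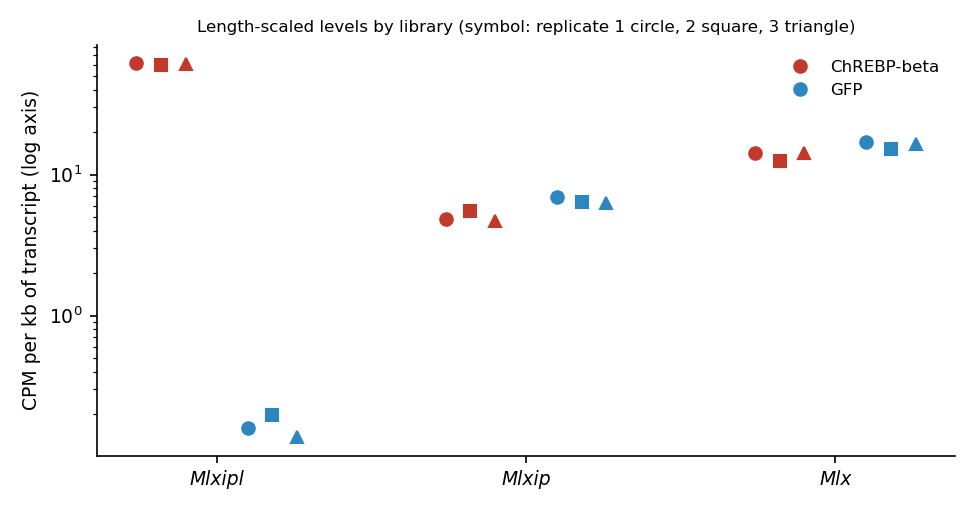
CPM per kb of transcript on a logarithmic axis for the 3 members, with ChREBP-beta (red) left of GFP (blue) and 1 symbol for each library. Mlx lies above Mlxip in both groups, and Mlxipl lies above both with ChREBP-beta (60.4 CPM per kb on average) and below both with GFP (0.165 CPM per kb).

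Ratios taken within a library do not depend on how libraries are scaled to each other, and 3 such ratios were compared. The Mlxip to Mlx count ratio was 1.26, 1.67 and 1.23 in ChREBP-beta libraries, against 1.52, 1.57 and 1.42 in GFP libraries. ChREBP-beta replicate 2 lay above all GFP libraries and the other 2 lay below them. The mean log2 ratio was 0.46 ± 0.25 in ChREBP-beta cells and 0.59 ± 0.07 in GFP cells (SD, n = 3 each). The difference of -0.13 was within the spread of the libraries (two-sided exact permutation test, p = 0.4, adjusted over the 3 ratios 0.4), so a larger fall of Mlxip than of Mlx was not shown. Without ChREBP-beta replicate 2 the difference was -0.28 (exact permutation p = 0.1, the smallest p possible with 2 libraries against 3). Over all libraries left out in turn the difference ran from -0.28 to -0.05.

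The Mlxipl to Mlxip count ratio was 6.3, 5.29 and 6.41 in ChREBP-beta libraries and 0.0114, 0.0155 and 0.0109 in GFP libraries. The Mlxipl to Mlx ratio was 7.91, 8.84 and 7.86 in ChREBP-beta libraries and 0.0173, 0.0243 and 0.0155 in GFP libraries. Both differed between the groups without overlap, by 8.91 and 8.78 on the log2 scale (two-sided exact permutation p = 0.1 each, adjusted 0.15). With 3 libraries against 3, 0.1 is the smallest p this test allows. Because Mlxipl was the gene overexpressed, both separations were set by the design, and the p-values are no further evidence.

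**Figure D4:**
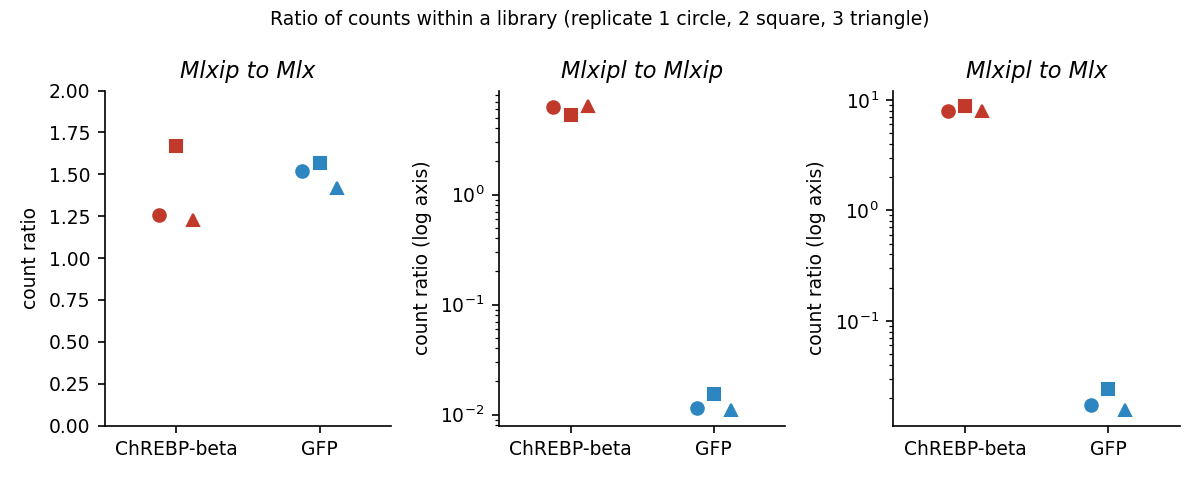
Count ratios between pairs of members within each library, with ChREBP-beta on the left and GFP on the right of each panel and the last 2 panels on logarithmic axes. The Mlxip to Mlx ratio overlaps between the groups (1.23 to 1.67 with ChREBP-beta, 1.42 to 1.57 with GFP), whereas both ratios with Mlxipl are separated.

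Mlx also pairs with the Mxd1, Mxd4 and Mnt proteins, repressors that compete for E-boxes, and these 3 were all tested. Mxd1 was lower, at 3.92, 3.19 and 2.95 CPM in ChREBP-beta libraries, against 9, 7.25 and 7.63 CPM in GFP libraries (log2 fold change -1.25, SE 0.167, edgeR adjusted p = 6.65e-07). Mnt was higher, at 25.6 ± 0.927 CPM in ChREBP-beta cells and 19.7 ± 1.79 CPM in GFP cells (SD, n = 3 each; log2 fold change 0.37, edgeR adjusted p = 2.53e-04). Mxd4 stood at 105 ± 0.466 CPM in ChREBP-beta cells and 99.2 ± 2.22 CPM in GFP cells (log2 fold change 0.09). Its call (edgeR adjusted p = 0.0458) was lost in 12 of 16 alternatives, among them every library left out except GFP replicate 3. The 3 partners of Mlx other than the Mondo proteins thus did not move in 1 direction.

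Among 8 regulators that act on Mlxipl in liver or fat, 5 had enough counts to test and 1 of those passed (20%, beside 58.7% of all tested genes). Thra, a thyroid hormone receptor, was lower at 36.6 ± 1.11 CPM in ChREBP-beta cells, against 44.6 ± 1.2 CPM in GFP cells (SD, n = 3 each; log2 fold change -0.29, edgeR adjusted p = 1.24e-04). The deposited Thra counts were fractional in every library (666.1, 670.49 and 653.73 in ChREBP-beta libraries, and 834.18, 798.49 and 824.46 in GFP libraries). Whether part of this change belongs to another gene that shares its reads was not tested. The liver X receptors, which switch on Mlxipl in liver, had log2 fold changes of 0.06 for Nr1h2 (SE 0.067, edgeR adjusted p = 0.477) and -0.06 for Nr1h3 (SE 0.359, edgeR adjusted p = 0.898). Their partner Rxra was at 0.01 (SE 0.047) and Pou2f1, the octamer-binding factor Oct-1, at 0.07 (SE 0.058) on the log2 scale. Hnf4a, a nuclear receptor prominent in liver, had 11 reads over the ChREBP-beta libraries and 4 over the GFP libraries, and the thyroid hormone receptor Thrb had 2 in ChREBP-beta and 1 in GFP libraries, too few to test.

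Genes of the proteins that hold, move or modify the Mondo factors mostly changed by small steps in RNA. Of 26 listed, 25 were tested: 13 were higher, 6 lower and 6 not called, with a median log2 fold change of 0.07, against 0.00 over all tested genes. That is 76% called, beside 58.7% of all genes. Scaled by library size alone, or by upper quartiles, 8 were higher and 7 lower. The largest change was in Prkaa2, a catalytic subunit of AMP-activated kinase, which inhibits ChREBP in liver. It was at 9.47 ± 0.566 CPM in ChREBP-beta cells and 3.74 ± 0.0451 CPM in GFP cells (SD, n = 3 each; log2 fold change 1.34, edgeR adjusted p = 2.06e-08). The other catalytic subunit, Prkaa1, was more abundant and stood at 224 ± 4.37 CPM in ChREBP-beta cells and 223 ± 7.14 CPM in GFP cells (edgeR adjusted p = 0.826).

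Of the 5 importin alpha genes listed, 4 were called higher, beside 29.5% of all tested genes. Kpna6, Kpna1 and Kpna3, whose products carry proteins into the nucleus, had log2 fold changes of 0.31, 0.29 and 0.21 (edgeR adjusted p = 3.84e-08, 2.07e-06 and 2.09e-05). Kpna4 was at 0.09 (edgeR adjusted p = 0.022), a call lost in 5 of 16 alternatives, and Kpna2 was at -0.08 and not called (edgeR adjusted p = 0.743). Kpna2 was read much less, at 5.25 CPM in ChREBP-beta cells and 5.51 CPM in GFP cells, with fractional counts in every library. Its estimate was therefore less certain (SE 0.190, against 0.042 for Kpna1). The export receptor gene Xpo1, which carries ChREBP out of the nucleus, was at -0.01 (SE 0.028, edgeR adjusted p = 0.869). Genes of 14-3-3 proteins, which retain phosphorylated ChREBP in the cytoplasm, split: Ywhag was higher by 0.30 and Ywhaz lower, at -0.21 on the log2 scale (edgeR adjusted p = 2.21e-09 and 2.75e-07). Ogt, whose product adds O-GlcNAc to ChREBP, was lower, at 170 ± 6.6 CPM in ChREBP-beta cells and 210 ± 7.37 CPM in GFP cells (SD, n = 3 each; log2 fold change -0.31, edgeR adjusted p = 4.34e-08). Hcfc1, a cofactor that binds Ogt and ChREBP, was higher by 0.24, while Sri, which encodes sorcin, a cytoplasmic binder of ChREBP, was at -0.24 and Prkaca, a catalytic subunit of protein kinase A, at -0.19 (edgeR adjusted p = 6.32e-07, 6.03e-05 and 6.66e-06).

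Of 29 listed targets of ChREBP or MondoA, 21 were tested: 15 were higher, 4 lower and 2 not called. That is 90.5% called, beside 58.7% of all genes, with a median log2 fold change of 1.61, against 0.00 over all. The list was drawn up with results of these data known, so its direction is no independent evidence. Ppp1r3b, a glycogen-targeting subunit of protein phosphatase, was at 42.3, 41.7 and 39.7 CPM in ChREBP-beta libraries, against 2.67, 2.54 and 2.56 CPM in GFP libraries. Rgs16 (log2 fold change 2.88), a regulator of G protein signalling, and Hk2 (2.64), the inducible hexokinase, also rose (edgeR adjusted p = 1.29e-16 and 1.05e-24). Txnip, the classical MondoA target that limits glucose uptake, was picked as an example after its values were seen: it was at 80, 80.6 and 81.8 CPM in ChREBP-beta libraries, against 16.6, 16.6 and 18.2 CPM in GFP libraries. Its sister arrestin Arrdc4, also picked afterwards, had 9, 9 and 11 reads in ChREBP-beta libraries and 0, 2 and 5 in GFP libraries, and was below the filter.

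Some of the largest target changes rested on few reads. Angptl8, a regulator of lipoprotein lipase, had 149 reads over the ChREBP-beta libraries and 2 over the GFP libraries, a ratio of 75.4 with an exact 95% counting interval of 20.5 to 628. Slc2a5, the fructose transporter, had 30, 36 and 31 reads in ChREBP-beta libraries and 3, 2 and 2 in GFP libraries (log2 fold change 3.74, edgeR adjusted p = 3.51e-07).

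Of the 4 targets that fell, Gpd1 changed most. It encodes the cytosolic glycerol phosphate dehydrogenase and was at 1.47, 1.01 and 1.21 CPM in ChREBP-beta libraries and 5.65, 4.04 and 6.24 CPM in GFP libraries (log2 fold change -2.10, edgeR adjusted p = 1.33e-07). Khk, the fructokinase, was at -0.71 on the log2 scale (edgeR adjusted p = 8.15e-04). Acacb, the mitochondrial acetyl-CoA carboxylase, had a log2 fold change of -0.80 (edgeR adjusted p = 0.0275) that was not called without any 1 of the ChREBP-beta libraries or of GFP replicates 2 and 3 (adjusted p between 0.0523 and 0.111). Scd1, the fatty acid desaturase, was at 668 ± 12.1 CPM in ChREBP-beta cells and 803 ± 44.2 CPM in GFP cells (SD, n = 3 each; log2 fold change -0.26, edgeR adjusted p = 1.68e-07).

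**Figure D5:**
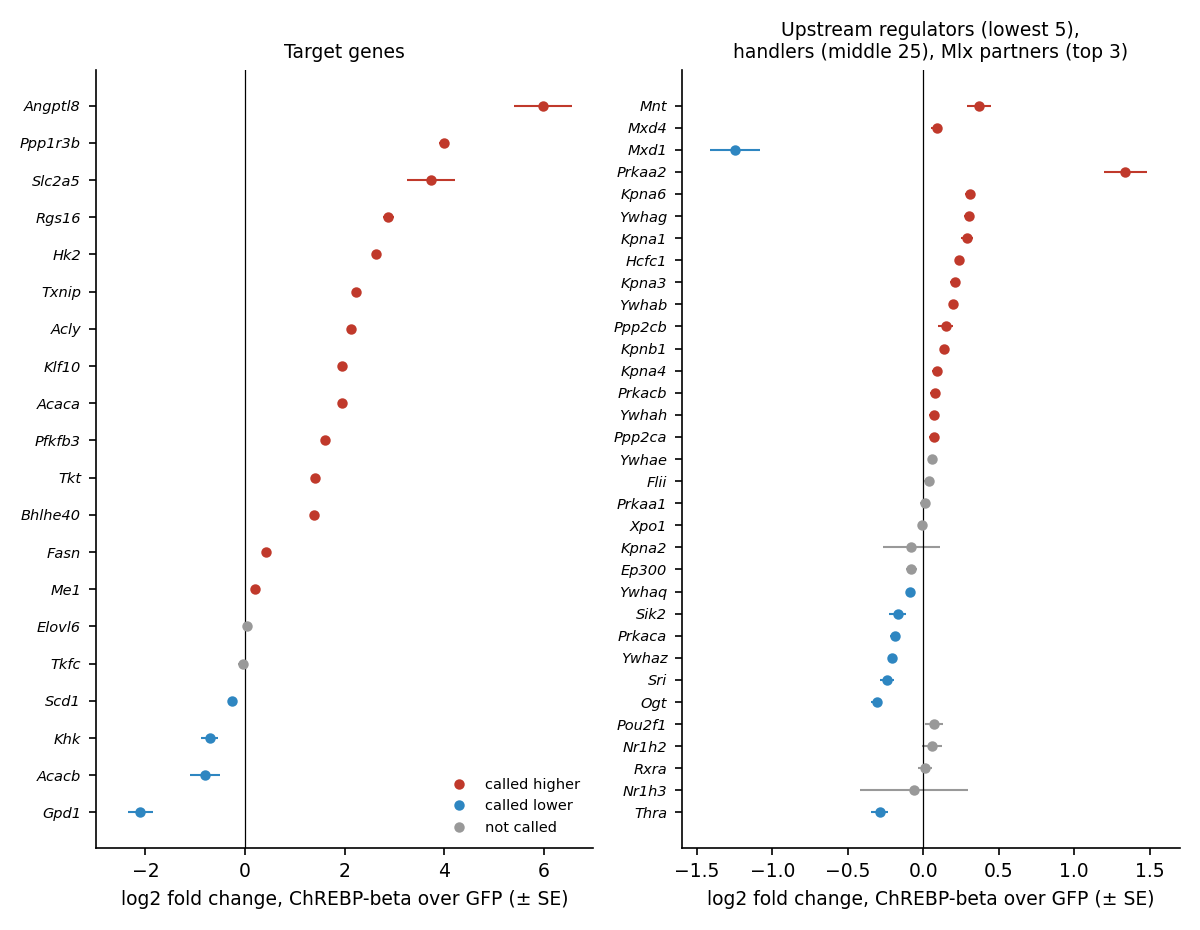
Log2 fold changes, ChREBP-beta over GFP, with standard errors for the tested genes of the target list (left panel, without 1 gene not reported here) and of the Mlx partner, handler and upstream lists (right panel). Red points were called higher, blue lower and grey not called. Targets spread from Gpd1 at -2.10 to Angptl8 at 5.99, whereas handlers lie between -0.31 (Ogt) and 1.34 (Prkaa2).

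The genes whose library profile was most like each member's were found by the root mean square difference of mean-centred log2 CPM over the 6 libraries. For Mlxipl they were Cck, St6galnac3 and Crispld2, at 0.314, 0.759 and 0.898, against a median of 4.147 over the other genes. Cck, the gene of the peptide hormone cholecystokinin, was at 106 CPM in ChREBP-beta cells and 0.252 CPM in GFP cells on average. For Mlxip the nearest were Cnpy2, Mrps16 and Armc9, at 0.036, 0.044 and 0.047, against a median of 0.263. For Mlx they were Cables2, Srd5a3 and Ano8, at 0.036, 0.038 and 0.040, against a median of 0.219. With 2 groups and 6 libraries, nearness mostly reflects a group difference of the same size, and it says nothing of shared function or control.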

How the data were processed

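Libraries were grouped by their titles. The authors deposited 1 table of estimated counts per gene symbol, not normalized, with a column for each library, in which 7.67% of the values are not whole. Per the submitters' processing notes, which give neither roles nor order here, TopHat2 2.0.0, Bowtie2 2.0.0.5 and fastp were used before the table was made. Those notes name GRCg6a, an assembly of the chicken genome, although the symbols are of mouse genes. The sources used here do not give the mouse build, annotation, counting tool or strand setting. Coordinates were taken by symbol from GENCODE M21 (GRCm38) and may differ from the build the authors used.

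Rows of the 24 repeated symbols were summed and the counts rounded. Genes kept by filterByExpr (minimum count 10, minimum total 15; 12166 genes) were scaled by TMM and tested with edgeR 4.0.16 in R 4.3.3 (glmQLFit and glmQLFTest, two-sided, Benjamini-Hochberg, called at an adjusted p of 0.05). CPM values use the TMM-scaled library sizes. Standard errors are the log2 fold change over the square root of F. None is given for Mlxipl, where few GFP reads set the error and an exact counting interval is printed. Intervals cover counting error only, since PCR reads are not independent molecules. Within-library ratios were compared by exact permutation over libraries.

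Library pairs of a group differed by 2.15 to 3.93 chi-square per degree of freedom, more than sampling noise. All 6 libraries were kept. The edgeR procedure was tested on simulated data in which only a small share of the genes changed. That simulation does not show how the scaling and calls behave where 58.7% of the genes are called, as here.

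The members, gene lists and tests were chosen with earlier results of these data known. Named genes are the members, tested partners and upstream regulators, the up to 6 targets and handlers that rose most and the up to 4 that fell most, and the 3 genes nearest each member in profile (log2 CPM with a prior count of 2). Txnip, Arrdc4, Prkaa1, Xpo1, Kpna2, Kpna4, Pfkfb3, Psmc3ip, the marker genes and genes too low to test fall outside that rule and were chosen after their values were seen. Some results on single listed genes are not reported here, while the counts over the lists include those genes.

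The tests were repeated with DESeq2 1.42.0 and with limma-voom (limma 3.58.1), with upper-quartile, RLE or library-size scaling, with Mlxipl kept out of TMM, without the filter or with a floor of 5 on mean CPM, with counts cut down to whole numbers, with a block for the replicate number, and with each library left out. Summing Mlx with Psmc3ip was added after seeing the data.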

Additional observations from a re-analysis of the deposited data

How the results depend on the processing

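Mlxipl and Mlxip kept their direction and call in all 16 repeats of the test under other settings, with log2 fold changes of 8.40 to 8.65 and -0.45 to -0.33. Mlx kept its direction in all 16, from -0.29 to -0.18, and its call in all but the fit without ChREBP-beta replicate 2 (-0.18, edgeR adjusted p = 0.0535). Over the 6 libraries left out in turn, Mlx ran from -0.29 to -0.18, Mlxip from -0.45 to -0.33 and Mlxipl from 8.40 to 8.65. The count of genes called ran from 6209 of 9959 tested (mean CPM of at least 5) to 7383 of 16820 tested (no filter). The ends of this range thus differ in how many genes were tested. Whether a gene was called or not stayed the same in every repeat that tested it for 18 of 21 targets, 2 of 3 Mlx partners, 17 of 25 handlers and 5 of 5 upstream regulators. These counts include genes that were never called, and of the upstream regulators only Thra was called. Mxd4 was moved to 0.04 by scaling to library size alone.

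Same-numbered libraries of the groups did not deviate together (r of -0.0182, 0.00151 and -0.04 for numbers 1 to 3), so no pairing by number was detected. This check cannot show whether same-numbered samples were handled together. With the replicate block 6902 genes were called, and Mlxipl, Mlxip and Mlx had log2 fold changes of 8.50, -0.38 and -0.25, all called. The Mlxip to Mlx ratio taken as paired differences, a replicate block, again gave -0.13 (exact p = 0.5). Depth limits Mlxipl in GFP cells, where a library held 9 to 13 reads, and Arrdc4, Angptl8 and Slc2a5.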

Other observations

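Of the 29 listed targets, 23 had a RefSeq window of 250 bases before a start site, and 4 of those 23 (Pfkfb3, Khk, Arrdc4 and Fgf21) held CACGTG, against 1978 of all 32851 windows (6.02%). Of the 11 with a window that were called higher, 1 (Pfkfb3, which makes the activator of phosphofructokinase) held it, and of the 2 called lower, 1 (Khk) did. Of these 23 targets, Txnip was the 1 with the tandem half-sites printed in the report. These windows do not cover elements farther from the start, and no letters here show binding.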
